A study of Mus musculus with 3 samples.

Results

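Venous endothelial cells of the mouse lung were examined in 3 droplet single-cell RNA libraries, in which each barcode stands for about 1 cell and a UMI, a unique molecular identifier, tags 1 captured RNA molecule. A barcode was counted as venous if it had 1000 to 5000 detected genes, under 20% of UMIs from mitochondrial genes, at least 2 UMIs of the pan-endothelial genes Pecam1 and Cdh5, and at least 4 UMIs of Slc6a2, Car8, Prss23 and Amigo2 together (the rule genes), more than of the arterial genes Bmx, Gja5, Stk32a and Dkk2. Barcodes with 4 or more UMIs of the aerocyte genes Ednrb, Fibin, Tbx2, Chst1 and Apln, or 3 or more of the lymphatic genes Prox1, Mmrn1 and Reln, were left out. This gave 2082 venous barcodes of 31092 endothelial barcodes, with 873 from control mice, 586 from 6 h and 623 from 30 h. The members were thus chosen by the measured UMIs of the 4 rule genes, whose levels are a description only.

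All mice were wild-type C57BL/6, and per the study's methods they were young adult males. The control mice received PBS by tail vein and were taken after 6 h. The other groups received 200000 B16-F10 cells, a transplantable melanoma line of the same mouse strain, in 100 µl by the same route and were taken after 6 h or 30 h. The lungs of each group were pooled, digested with collagenase at body temperature, and sorted for Pecam1-positive, Ptprc-negative cells, and sorted melanoma cells were added to the 6 h library per the labels. Whether they were added at 30 h as well is not clear from the sources. There was 1 library per group, with no 30 h control, so that time and treatment cannot be told apart at 30 h. The labels and the methods differ on how many mice each group held. No p-value is given. Intervals are 95% intervals and cover counting error only.

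Veins collect blood from the capillary bed and are the site at which leukocytes leave the blood in most organs, although in the lung they also leave from capillaries. Venous endothelium stores von Willebrand factor and P-selectin (Selp) in Weibel-Palade bodies, which fuse with the surface within minutes of stimulation, and cytokines add E-selectin (Sele), VCAM-1 (Vcam1) and ICAM-1 (Icam1) by new transcription. Venous identity is kept by the nuclear receptor COUP-TFII (Nr2f2), and lung veins carry the noradrenaline transporter Slc6a2, by which lung endothelium clears noradrenaline from the blood.

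The libraries held 124085451 to 140601123 UMIs over all barcodes. Venous barcodes had a median of 10038, 10207 and 10450 UMIs (control first, then 6 h, then 30 h, the order of all triplets below), and capillary barcodes, defined as endothelial barcodes with no more than 1 UMI of each of the venous, arterial, aerocyte and lymphatic gene sets, had 6787, 7274.5 and 7618. Summed over the venous barcodes of a library, 8891033, 6043329 and 6625778 UMIs stood behind each level. Levels are UMIs per 1000000 of these sums (CPM), not scaled by gene length. No barcode sequence was venous in more than 1 library. Scrublet, which scores likely 2-cell droplets, marked 12.5%, 11.9% and 9.47% of the venous barcodes.

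The rule genes were fixed to be high in venous barcodes and low in capillary ones, so their levels do not bear on the label. Slc6a2 stood at 1407, 1485 and 1284 CPM in venous barcodes against 2.31, 2.07 and 1.45 CPM in capillary barcodes, and Car8, a protein related to carbonic anhydrases, stood at 256, 294 and 330 CPM. The serine protease gene Prss23 stood at 1301, 1087 and 1271 CPM and the adhesion gene Amigo2 at 228, 185 and 247 CPM. The label was checked on the venous markers that the rule did not count. The ectoenzyme gene Bst1 stood at 145, 204 and 187 CPM against 1.3, 1.95 and 1.86 CPM in capillary barcodes. Vwf, encoding von Willebrand factor, stood at 1972, 1953 and 2315 CPM against 94.8, 81.5 and 57.6 CPM, and arterial barcodes held 946, 767 and 965 CPM of it. Selp was the marker with the widest spread over libraries, at 127, 342 and 44.7 CPM. Slc6a2 was detected in 77.3%, 84.5% and 77.2% of venous barcodes and, after each barcode was thinned to 2000 UMIs, in 68.1%, 73.5% and 66.0%, against 0.537%, 0.481% and 0.466% of capillary barcodes thinned the same way. All 4 rule genes were detected together in 49.7%, 48.1% and 56.8% of members.

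The members were not uniform along the rule. Their rule-gene UMIs ran from 4 to 154, with medians of 26, 28 and 29, and 191, 99 and 117 members had only 4 or 5. Among control members, Bst1 went from 8.58 CPM in members with 4 or 5 rule UMIs to 247 CPM in those with 40 to 79, and Vwf from 337 to 3025 CPM. Vcam1 went from 37.5 to 624 CPM and Nr2f2 from 62.2 to 519 CPM over the same bins. Capillary genes ran the other way. Lpl, encoding lipoprotein lipase, went from 836 to 96.3 CPM and Glp1r, the receptor for the gut hormone GLP-1, from 413 to 54.2 CPM. Members with few rule UMIs thus carried low venous and high capillary levels in each library, and the 236, 133 and 145 barcodes just outside the limit, with 3 rule UMIs, were followed inside it by 115, 61 and 69 with 4. Because of this gradient, values are also given where they matter for the 586, 415 and 434 members with at least 10 rule UMIs.

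**Figure D1:**
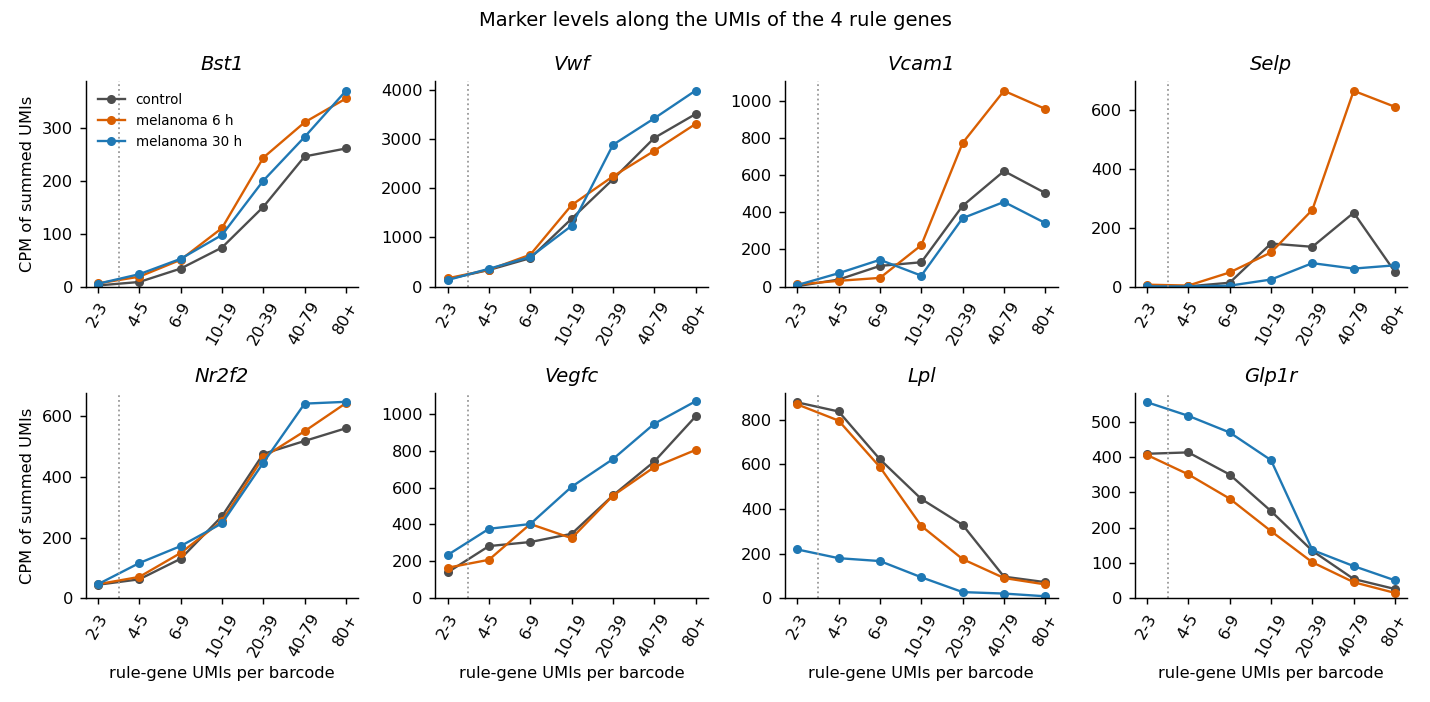
CPM of summed UMIs (y axis) of 8 genes in barcodes binned by UMIs of the 4 rule genes (x axis), with 1 line per library; the dotted line marks the limit of 4 UMIs. Among control members Vwf goes from 337 CPM at 4 to 5 rule UMIs to 3025 CPM at 40 to 79 while Lpl goes from 836 to 96.3 CPM, and Selp at 40 to 79 stands at 251 CPM in control, 667 CPM at 6 h and 61.1 CPM at 30 h.

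RNA of other cell types was present in part of the members. At least 20 UMIs of the platelet, mural, fibroblast, epithelial, immune, cardiomyocyte, mesothelial or melanoma marker list, or 100 of the red-cell list, were found in 44 of 873, 23 of 586 and 14 of 623 venous barcodes, and those with epithelial RNA numbered 22, 8 and 0. In the control and 6 h libraries such barcodes carried most of the RNA of surfactant genes, and at 30 h they carried almost none of it. Sftpc, the marker of alveolar type 2 cells, stood at 795, 3054 and 53.9 CPM in all members, with 89.3% of its UMIs at 6 h in 5 barcodes, and at 74.2, 69.3 and 53.6 CPM without the barcodes named above. The smooth muscle actin gene Acta2 stood at 7.87, 84.2 and 32.1 CPM with them and at 1.31, 4.36 and 6.83 CPM without them. Free RNA was estimated at 7.10%, 8.20% and 7.87% of UMIs, and red-cell RNA of at least 5 UMIs was found in 83.3%, 55.3% and 3.37% of members. Summed over 8 markers, melanoma RNA stood at 1.57, 17.2 and 1.66 CPM in venous barcodes and at 1.69, 199 and 2.22 CPM in empty droplets. The part of these RNAs in the results was tested only where values without the barcodes are given.

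Venous barcodes made up 7.77% (95% exact interval 7.28 to 8.28) of endothelial barcodes from control mice, 5.54% (5.11 to 5.99) at 6 h and 6.71% (6.21 to 7.24) at 30 h. The share at 6 h lay 2.24 percentage points below control, as a difference of −2.24 (Newcombe interval −2.90 to −1.57), and the share at 30 h differed from control by −1.06 (−1.77 to −0.339). With at least 10 rule UMIs the differences were −1.3 (−1.86 to −0.737) at 6 h and −0.540 (−1.14 to 0.0645) at 30 h. Both differences turned positive, to 1.07 and 4.58 points, when barcodes with at least 3 UMIs of a marker list of another cell type, or 5 of the epithelial or red-cell list, were left out. This kept 111, 218 and 517 venous barcodes. The red-cell limit was reached by 727 of the 762 removed in control, 324 of 368 at 6 h and 21 of 106 at 30 h, and in capillary barcodes by 84.9%, 60.2% and 3.27%, so that this setting removed barcodes unequally over the libraries. With 1 library per group, the spread of this share between mice is unknown.

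Beside the rule genes, venous barcodes were set apart from capillary ones by genes of several roles, which are a description since the rule used this contrast. Of 6834 genes whose levels averaged 20 CPM or more across the libraries, 209 (3.06%) were at least 1 log2 unit above capillary barcodes in each library and 49 (0.717%) at least 1 below. Carboxypeptidase E (Cpe), a prohormone-processing enzyme, stood at 230, 227 and 261 CPM against 1.35, 1.31 and 1.70 CPM. Cytosolic phospholipase A2 (Pla2g4a), which frees arachidonic acid, stood at 82.2, 93.8 and 87.5 CPM against 0.457, 1.05 and 0.768 CPM. Cyclooxygenase 2 (Ptgs2), which acts on that acid, stood at 140, 184 and 74.9 CPM against 0.366, 1.76 and 0.164 CPM, and prostacyclin synthase (Ptgis) stood at 96.6, 130 and 126 CPM against 5.67, 4.71 and 7.76 CPM. These 3 genes, which serve 3 successive steps of prostacyclin synthesis, were thus each far above the capillary level. The cyclooxygenase step is also served by Ptgs1, described below. Summed over the 16 prostanoid genes, venous barcodes held 7734, 5975 and 4909 CPM and capillary barcodes 7124, 5404 and 4148 CPM. Nr2f2 stood at 359, 388 and 425 CPM against 20.1, 20.8 and 22.1 CPM. Vegfc, a growth factor for lymphatic vessels, stood at 558, 532 and 730 CPM against 64.4, 54.9 and 81.8 CPM. Lrg1, a secreted glycoprotein that alters TGF-beta signalling, stood at 457, 541 and 296 CPM against 30.6, 35.4 and 22.6 CPM. The retinoic acid receptor Rarb stood at 96.1, 53.1 and 193 CPM against 1.60, 0.512 and 1.56 CPM, and the collagen-cleaving membrane protease Mmp16 at 148, 117 and 102 CPM against 1.19, 1.15 and 0.466 CPM.

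Some of these genes were shared with arterial barcodes, of which there were 200, 194 and 256. The small secreted protein gene Cytl1 stood at 228, 200 and 305 CPM in venous and 277, 208 and 221 CPM in arterial barcodes. Fbln5, which organizes elastic fibres, stood at 92.5, 99.4 and 184 CPM in venous and 82.7, 71.6 and 150 CPM in arterial barcodes. Both were below 4 CPM in capillary barcodes. Ackr1, the chemokine receptor that marks venules of other organs, was nearly absent, at 1.24, 1.65 and 0.906 CPM (Ackr1 and Sele were singled out after their values were seen).

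**Figure D2:**
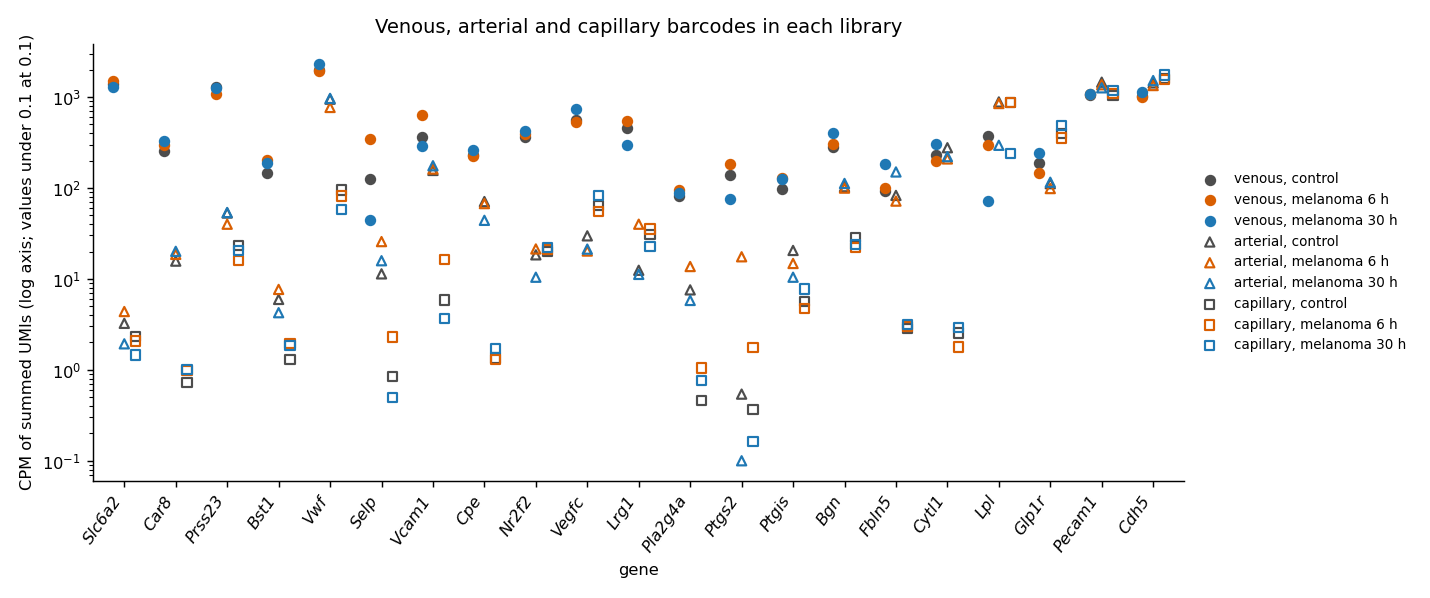
CPM of summed UMIs (y axis, log scale) of 21 genes in venous (filled circles), arterial (triangles) and capillary (squares) barcodes, coloured by library. Slc6a2 stands at 1284 to 1485 CPM in venous barcodes and at 1.45 to 2.31 CPM in capillary ones, while Pecam1 and Cdh5 lie at similar levels in the 3 classes.

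The study asked how lung endothelium responds in the first hours after tumour cells reach the lung. Changes between libraries are log2 ratios of CPM + 1, and a gene is said to have risen or fallen when this ratio was at least 0.5 or at most −0.5. Of 6834 genes, 177 (2.59%) rose and 186 (2.72%) fell in venous barcodes at 6 h, and the median over all genes was −0.02. At 30 h, 325 (4.76%) rose and 540 (7.9%) fell against control, with a median of −0.07. Some genes passed the mean of 20 CPM only through the 1 library in which they were high, with a mean below it in the other 2, so that they had to differ. They made up 30 of the 177 and 16 of the 186 at 6 h, and 32 of the 325 and 44 of the 540 at 30 h. The counts depend on the filter, and among genes at 5 CPM or more 454 rose and 386 fell at 6 h. Against the 6 h library, 326 genes (4.77%) were higher and 448 (6.56%) lower at 30 h.

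Of the adhesion receptors of venous endothelium, Selp, Vcam1 and Icam1 were highest at 6 h and lowest at 30 h. Of 14 leukocyte adhesion genes tested, 4 rose and 0 fell at 6 h, beside 2.59% and 2.72% of all genes, with a median log2 ratio of 0.32, and 0 rose and 3 fell at 30 h, beside 4.76% and 7.9%. Alcam, which passed the filter only through the 6 h library, is among the 4 that rose and the 3 that fell. Selp (chr1:164115264-164150026, + strand, GRCm38) rose from 127 to 342 CPM, a log2 ratio of 1.43 (1.33 to 1.54), and stood at 44.7 CPM at 30 h, a ratio of −1.48 (−1.69 to −1.32). The 6 h level was thus the highest and the 30 h level the lowest of the 3 libraries. Among members with at least 10 rule UMIs it stood at 180, 461 and 61.5 CPM, and without barcodes heavy in other RNA at 133, 341 and 44.6 CPM. The gain at 6 h was seen in the share of cells as well as in the level. After thinning, Selp was found in 67 of 872 venous barcodes from control mice (7.68%, 6.00 to 9.66), in 79 of 586 at 6 h (13.5%, 10.8 to 16.5) and in 35 of 623 at 30 h (5.62%, 3.94 to 7.73). The unthinned shares were 16%, 24.7% and 14.3%, and thinned capillary barcodes had Selp in 0.195%, 0.326% and 0.0212%.

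Vcam1, the ligand of the integrin VLA-4, rose from 361 to 629 CPM after 6 h, with a log2 ratio of 0.80 (0.73 to 0.87), and stood at 288 CPM at 30 h, a ratio of −0.32 (−0.41 to −0.24). Its thinned shares were 26.8%, 33.1% and 25.4% of venous barcodes against 0.700%, 1.55% and 0.530% of capillary barcodes, and 45.7%, 55.1% and 52.6% unthinned. Selp and Vcam1 were found together in 4.82%, 8.87% and 3.37% of thinned venous barcodes. Icam1, the ligand of the leukocyte β2 integrins, stood at 550, 768 and 295 CPM. Its log2 ratio was 0.48 (0.42 to 0.54) at 6 h, short of the limit, and −0.90 (−0.98 to −0.82) at 30 h. The junctional adhesion gene Mcam rose from 128 to 193 CPM at 6 h, a ratio of 0.59 (0.47 to 0.71). Among members with at least 10 rule UMIs Mcam had 0.45 (0.31 to 0.60), short of the limit. The fourth gene counted as risen, Alcam, stood at 24.5, 53.9 and 11 CPM, but at 13.7, 12.7 and 11 CPM without the barcodes heavy in other RNA. Its 6 h ratio with at least 10 rule UMIs was 0.40 (0.07 to 0.76), also short of the limit. Sele, the selectin made only after stimulation, had 2.81, 19.4 and 2.57 CPM in venous, 0, 31.2 and 3.86 CPM in arterial and 0.366, 6.42 and 0.658 CPM in capillary barcodes, and had too low a mean to be counted in the list.

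Weibel-Palade body genes other than Selp moved less and in both directions. Vwf had log2 ratios of −0.01 (−0.05 to 0.02) at 6 h and 0.23 (0.20 to 0.26) at 30 h. Cd63, a membrane protein of these granules, rose from 39.9 to 65.9 CPM at 6 h. Rab27a and its effector Myrip, which hold granules at the cell cortex, fell from 191 to 130 CPM and from 166 to 106 CPM. Of 10 genes tested, Selp included, 2 rose and 2 fell at 6 h, beside 2.59% and 2.72% of all genes, and 0 rose and 2 fell at 30 h, beside 4.76% and 7.9%.

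**Figure D3:**
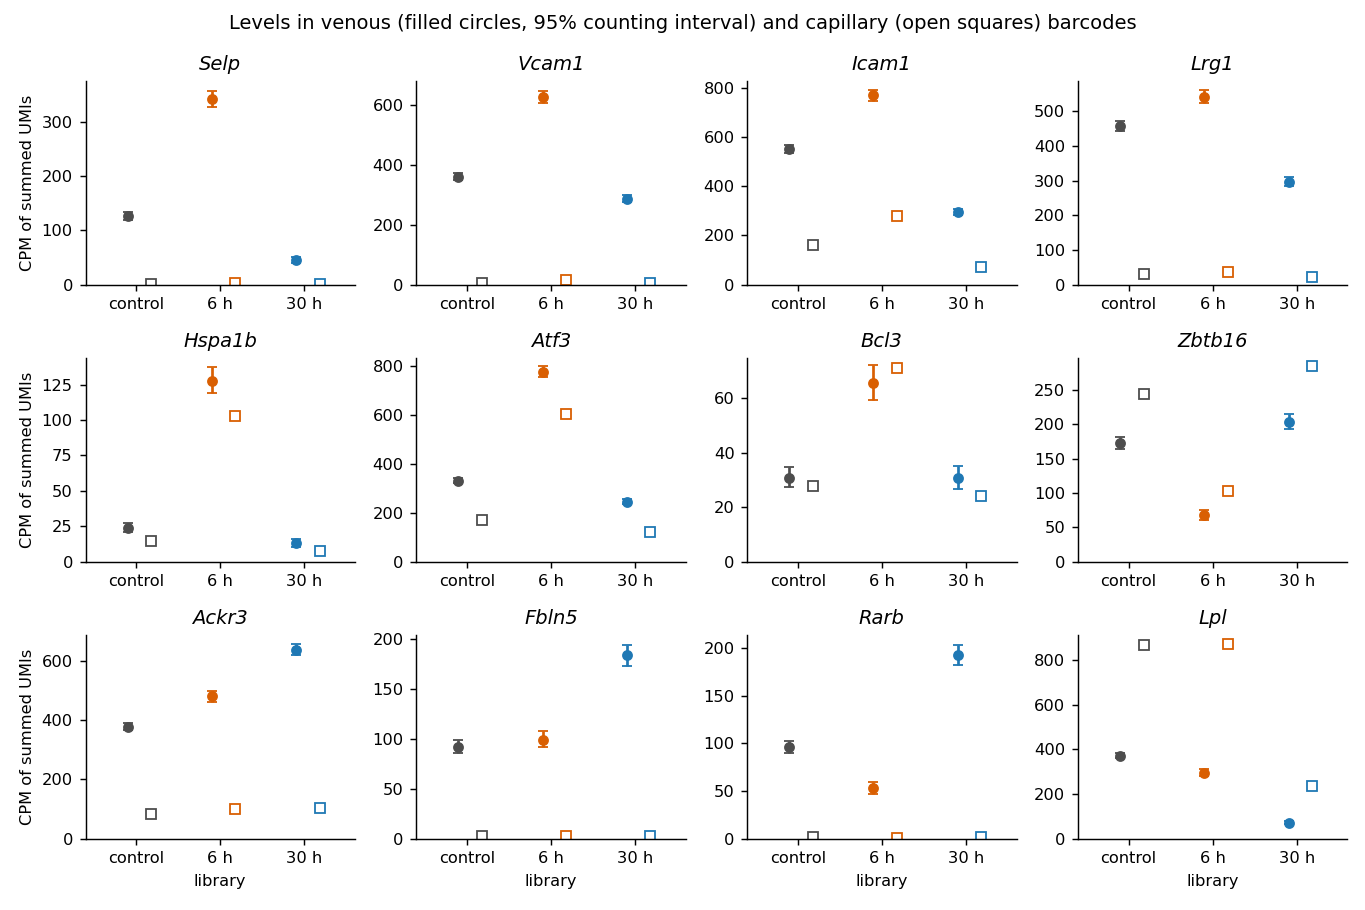
CPM of summed UMIs (y axis) of 12 genes in venous barcodes (filled circles with 95% counting intervals) and capillary barcodes (open squares) of the 3 libraries (x axis). Selp stands at 127, 342 and 44.7 CPM in venous barcodes and below 3 CPM in capillary ones, while Lpl is lower in venous than in capillary barcodes of each library and lowest at 30 h.

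Heat shock genes rose together at 6 h. Of 18 tested, 14 rose and 0 fell, beside 2.59% and 2.72% of all genes, and 1 of the 14, Hspa1b, passed the filter only through the 6 h library. The median log2 ratio was 0.85 in venous and 0.94 in capillary barcodes. The HSP70 gene Hspa1b went from 24.0 to 128 CPM, a ratio of 2.37 (2.20 to 2.64), and stood at 13.0 CPM at 30 h. Its near-identical copy Hspa1a, with which it may share reads, stood at 24.7, 99.4 and 16 CPM, and the HSP110 gene Hsph1 at 22.4, 84.6 and 32.6 CPM. The constitutive chaperones Hspa8 (808, 1630 and 959 CPM) and Hsp90ab1 (1100, 2184 and 1322 CPM) rose as well, with ratios of 1.01 (0.97 to 1.06) and 0.99 (0.95 to 1.03). Thinned Hspa1b was found in 4.70%, 16.9% and 3.05% of venous barcodes and in 2.64%, 14.9% and 1.25% of capillary ones, and unthinned in 15.7%, 44.7% and 10.4% of venous barcodes. In empty droplets, Hspa1b stood at 19.4, 154 and 11.3 CPM. At 30 h, 3 of the 18 genes rose and 4 fell, Hspa1b included, beside 4.76% and 7.9% of all genes.

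The promoters of the genes on which these comparisons turn are given below for the 250 bases before the RefSeq start (GRCm38.p6). The Selp window was searched for the NF-kB consensus and the other windows for the heat shock element, with any match in capitals. The element was searched as GAANNTTC or TTCNNGAA, which read the 2 possible joins of the repeat that HSF1 binds, on both strands, and occurs in 4218 of 32851 RefSeq promoter windows of this length (12.8%).
Selp, chr1:164115014-164115263, + strand: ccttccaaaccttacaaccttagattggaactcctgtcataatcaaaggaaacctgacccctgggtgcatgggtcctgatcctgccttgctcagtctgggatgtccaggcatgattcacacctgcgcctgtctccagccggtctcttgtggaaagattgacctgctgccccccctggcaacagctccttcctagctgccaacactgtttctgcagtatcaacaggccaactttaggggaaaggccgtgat
Hspa1b, chr17:34959239-34959488, − strand: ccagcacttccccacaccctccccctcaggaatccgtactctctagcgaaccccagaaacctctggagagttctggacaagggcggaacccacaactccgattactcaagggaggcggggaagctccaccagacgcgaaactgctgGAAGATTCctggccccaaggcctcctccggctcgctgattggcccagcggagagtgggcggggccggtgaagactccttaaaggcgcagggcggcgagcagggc
Hsph1, chr5:149636337-149636586, − strand: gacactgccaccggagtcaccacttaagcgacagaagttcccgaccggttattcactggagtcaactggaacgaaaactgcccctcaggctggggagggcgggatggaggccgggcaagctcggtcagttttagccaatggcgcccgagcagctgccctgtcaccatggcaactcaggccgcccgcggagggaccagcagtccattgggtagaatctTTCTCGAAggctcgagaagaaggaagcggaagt
The match began 104 bases before the start in Hspa1b and 33 bases before it in Hsph1. Of the heat shock genes that rose at 6 h, 11 had a promoter entry and 8 of these held the element, against 1 of the 3 that were tested and did not rise and 0 of 1 that was too low to be tested, and 14.5% of all genes had it in at least 1 of their promoters. In the Selp window, a search for the NF-kB consensus, which 3.90% of windows hold, gave 0 matches. Of the NF-kB genes with an entry, 1 of the 3 that rose at 6 h, 4 of the 8 that were tested and did not rise and 2 of the 3 too low to be tested held this consensus. Of the leukocyte adhesion genes with an entry, 0 of the 3 that rose, 0 of the 5 that did not and 1 of the 3 too low to be tested held it, against 4.46% of all genes. The 8 heat shock genes include the near-identical copies Hspa1a and Hspa1b, and these groups are too small to compare. These matches are a description and not sites shown to be bound.

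Of 17 immediate early genes, 4 rose and 0 fell at 6 h, beside 2.59% and 2.72% of all genes, with a median log2 ratio of 0.37 in venous and 0.56 in capillary barcodes. Of the 4, Fosl2 passed the filter only through 1 library. Atf3, a stress-induced transcription factor, stood at 331, 774 and 245 CPM, a ratio of 1.22 (1.16 to 1.29) at 6 h, and Egr1 at 923, 1411 and 727 CPM. Fos, at 2561, 3403 and 1682 CPM, did not reach the limit at 6 h and fell at 30 h, with ratios of 0.41 and −0.61. Of 14 NF-kB genes, 3 were past the limit upwards and 0 downwards at 6 h, but 2 of the 3, Nfkb2 and Tnfaip2, passed the filter only through the 6 h library, so the count is no support for a change of the list. Bcl3, a nuclear partner of the NF-kB p50 and p52 subunits, stood at 30.8, 65.5 and 30.6 CPM, and Nfkb2, which encodes p52, at 17.2, 34.9 and 16.5 CPM. At 30 h, 1 of the 14 rose and 5 fell, beside 4.76% and 7.9% of all genes. The 1 that rose was again Tnfaip2, let in by 1 library. Among those that fell were Rel (65.8, 63.9 and 35.5 CPM) and the apoptosis inhibitor Birc3 (61.6, 69.3 and 32.6 CPM).

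The kinase gene Pim3 stood at 208 CPM (control), 282 CPM (6 h) and 199 CPM (30 h) in venous barcodes, with log2 ratios of 0.44 (0.35 to 0.54) and −0.06 (−0.17 to 0.04), so that it did not reach the limit at either time. Capillary barcodes held 92.7, 151 and 75.2 CPM, a ratio of 0.70 at 6 h. Thinned to equal depth, Pim3 was found in 30.3%, 34.0% and 29.4% of venous barcodes (70.7%, 73.0% and 68.9% unthinned) and in 15.5%, 21% and 12.2% of capillary barcodes. Its relative Pim1 stood at 132, 147 and 65.0 CPM and fell at 30 h, with a ratio of −1.01 (−1.18 to −0.86), and Pim2 was near the detection limit at 4.84, 3.97 and 3.32 CPM. The panel of reactive capillary markers that the study followed by RT-qPCR had 7 genes, of which 6 passed the filter. Of these 6, 4 rose and 0 fell in venous barcodes at 6 h, beside 2.59% and 2.72% of all genes. Those that rose were Bcl3, the oncostatin M receptor gene Osmr (89.9, 130 and 44.4 CPM), Tmem252 (317, 487 and 400 CPM) and the metalloprotease gene Adamts9 (112, 170 and 87.7 CPM). Among members with at least 10 rule UMIs, Osmr had a 6 h ratio of 0.48 (0.32 to 0.65), short of the limit. Bcl3, Tmem252 and Adamts9 stayed past it there. The study chose this panel with these samples among its data, so the count is not independent evidence of a direction. Of 21 JAK-STAT genes, 2 rose and 1 fell at 6 h, beside 2.59% and 2.72% of all genes, and 1 rose and 7 fell at 30 h, beside 4.76% and 7.9%, with Osmr at −1.0 (−1.22 to −0.82). The feedback inhibitor Socs3 stood at 793, 1108 and 679 CPM, ratios of 0.48 and −0.22.

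Of 22 interferon genes tested, 3 rose and 0 fell at 6 h, beside 2.59% and 2.72% of all genes, with a median log2 ratio of 0.24. Among the 3 was the guanylate-binding protein gene Gbp2 (124, 239 and 143 CPM), and another, Zbp1, passed the filter only through 1 library. At 30 h, 1 rose and 9 fell, beside 4.76% and 7.9% of all genes, with a median of −0.17. The immunity GTPase gene Iigp1 stood at 553, 592 and 329 CPM and Ifit1, whose protein binds foreign RNA, at 116, 115 and 62.0 CPM, while Bst2, which tethers viruses to the membrane, rose from 419 to 622 CPM at 30 h.

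Most glucocorticoid-response genes fell at 6 h. Of 12 tested, 0 rose and 7 fell, beside 2.59% and 2.72% of all genes, with a median of −0.57 in venous and −0.78 in capillary barcodes. Of the 7, Per1 passed the filter only through the 30 h library. Zbtb16, a transcription factor gene, stood at 172, 67.8 and 204 CPM, a log2 ratio of −1.33 (−1.51 to −1.19) at 6 h. Fkbp5, a chaperone of the glucocorticoid receptor, stood at 99.2, 57.1 and 42.9 CPM and Klf9 at 528, 350 and 451 CPM. The direction at 30 h differed among the genes, with 3 rising, Per1 included, and 5 falling, beside 4.76% and 7.9% of all genes. The clock gene Per1 stood at 21.5, 11.1 and 39.5 CPM and the mTOR inhibitor Ddit4 at 34.4, 31.1 and 98.0 CPM, and both were above control at 30 h, while Fkbp5 and the sulfotransferase gene Sult1a1 (66.2, 27.6 and 22.3 CPM) remained below. The 30 h group was taken longer after injection than its control. The hour of the day at which lungs were taken is not given in the sources used here.

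Lipid, chemokine and redox genes were among those that changed at 30 h. Lpl stood at 372, 297 and 71.2 CPM, a log2 ratio of −2.37 (−2.53 to −2.25) at 30 h, and Gpihbp1, the anchor of that lipase on capillary cells, at 1183, 867 and 756 CPM, a ratio of −0.64. Among members with at least 10 rule UMIs, Lpl stood at 198, 145 and 31.6 CPM, and it was found in 37.0%, 28.7% and 11.6% of thinned venous barcodes (58.8%, 54.3% and 29.5% unthinned). Capillary barcodes held 867, 871 and 238 CPM. Cholesterol synthesis genes rose together, 8 of 9 with 0 falling and a median of 0.79, beside 4.76% of all genes that rose. Of the 8, 2 (Insig1 and Sc5d) passed the filter only through 1 library. Idi1, an isomerase of the isoprenoid pathway, stood at 17.5, 24.3 and 38.3 CPM and Srebf2, the transcription factor of the pathway, at 32.7, 43.7 and 64.1 CPM. Of 10 NRF2 targets, 1 rose and 5 fell, beside 7.9% of all genes that fell. Gclc, the catalytic subunit of the enzyme that starts glutathione synthesis, stood at 85.7, 87.9 and 32.1 CPM, and the exception was the epoxide hydrolase gene Ephx1, at 58.9, 46.8 and 115 CPM. The chemokine gene Cxcl12 rose from 109 to 350 CPM at 30 h, a ratio of 1.67 (1.57 to 1.79), and was higher in arterial barcodes, at 1602, 1558 and 5499 CPM. Its level was highest in members near the limit of the rule, at 862 CPM with 4 or 5 rule UMIs and 148 CPM with 40 to 79 at 30 h, and members with at least 10 had 67.1, 94.8 and 215 CPM. Its scavenger receptor Ackr3 stood at 378, 479 and 637 CPM, a ratio of 0.75 (0.69 to 0.82). The macrophage growth factor gene Csf1 fell from 82.8 to 36.1 CPM.

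Vessel wall matrix genes that passed the limit were all higher than control. Of 15 tested, 2 rose and 0 fell at 6 h, beside 2.59% and 2.72% of all genes, and 3 rose and 0 fell at 30 h, beside 4.76% and 7.9%. Their medians were 0.06 and 0.26. Elastin (Eln) stood at 337, 557 and 419 CPM, a log2 ratio of 0.72 (0.65 to 0.80) at 6 h. Fbln5 rose from 92.5 to 184 CPM at 30 h, a ratio of 0.99 (0.86 to 1.12), and biglycan (Bgn) from 279 to 404 CPM, a ratio of 0.53 (0.45 to 0.61). With at least 10 rule UMIs Bgn had 0.45 (0.37 to 0.53) at 30 h, short of the limit. Of 18 venous markers outside the rule, 2 rose and 1 fell at 6 h, beside 2.59% and 2.72% of all genes. At 30 h, 3 of the 18 rose and 3 fell, beside 4.76% and 7.9%. The medians of these markers were 0.11 and 0.20. Tll1, a protease that activates collagen precursors, fell at both times, at 283, 162 and 120 CPM, and Lrg1 fell at 30 h with a ratio of −0.63 (−0.71 to −0.55). Rarb had ratios of −0.84 (−1.04 to −0.67) at 6 h and 1.00 (0.88 to 1.13) at 30 h, and the retinoic acid degrading enzyme Cyp26b1 stood at 21.9, 8.77 and 29.9 CPM in the same order of libraries. Cyp26b1 passed the filter only through the 30 h library. Of 9 venous receptor and regulator genes, 0 rose and 0 fell at 6 h, beside 2.59% and 2.72% of all genes. At 30 h, 2 of the 9 rose and 0 fell, beside 4.76% and 7.9%. Of 6 prostanoid genes tested, 1 rose and 0 fell at 6 h, beside 2.59% and 2.72% of all genes. At 30 h, 0 of the 6 rose and 3 fell, beside 4.76% and 7.9%. Those that fell were Ptgs2, with −0.89 (−1.05 to −0.75), the constitutive cyclooxygenase gene Ptgs1 (369, 280 and 210 CPM) and Hpgd, which breaks down prostaglandins (6847, 5002 and 4194 CPM).

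**Figure D4:**
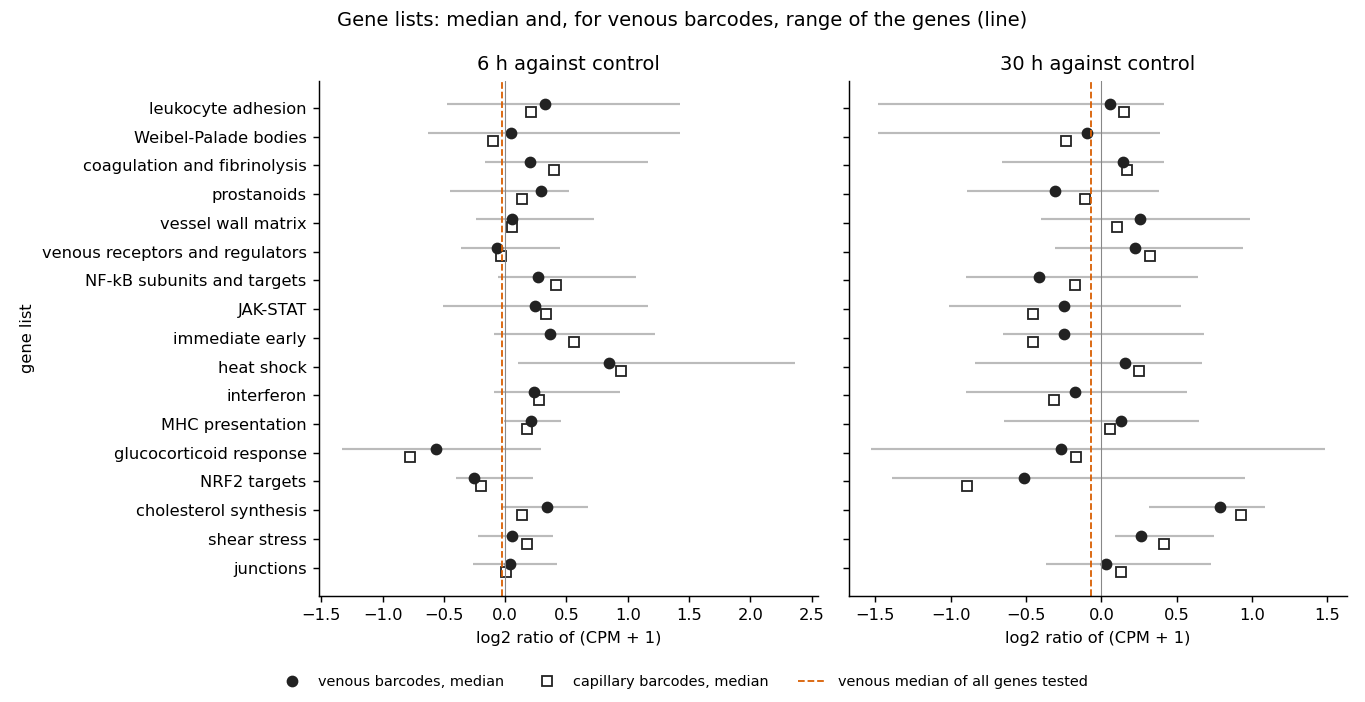
Median log2 ratio of (CPM + 1) against control (x axis) of 17 gene lists (y axis) in venous (circles) and capillary (open squares) barcodes at 6 h and 30 h, with grey lines for the range of the genes in venous barcodes and a dashed line for the median of all genes tested. Heat shock has the highest venous median at 6 h, at 0.85, and cholesterol synthesis at 30 h, at 0.79, and the glucocorticoid response has the lowest at 6 h, at −0.57.

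Venous changes were set beside those of capillary barcodes in the same libraries. Of 6529 genes at 20 CPM or more in both classes, the venous log2 ratio exceeded the capillary one by at least 0.5 for 22 (0.337%) at 6 h and 43 (0.659%) at 30 h, and fell short of it by as much for 32 (0.49%) and 59 (0.904%). The growth factor gene Hbegf (27.3, 32.1 and 22.5 CPM), the polyamine enzyme gene Odc1 (65.8, 78.6 and 59.9 CPM) and Spry4, an inhibitor of receptor tyrosine kinase signalling (49.6, 53 and 46.9 CPM), rose in capillary but not in venous barcodes at 6 h, with differences of −0.95, −0.93 and −1.06. For Spry4 the difference was −1.05 (−1.28 to −0.81) at 30 h as well. Genes with the opposite difference included Eln, with 1.02 (0.93 to 1.11) at 6 h, the protocadherin gene Pcdh7 (80.2, 133 and 104 CPM), with 1.58 (1.39 to 1.77), and the protease inhibitor gene Serpinb6b (141, 243 and 162 CPM), with 1.13 (1.00 to 1.26). The fatty acid binding protein gene Fabp4 stood at 134, 360 and 241 CPM with a difference of 2.04 at 6 h, but 30.7% of its venous UMIs there came from 1 barcode, and members with at least 10 rule UMIs had 154, 190 and 269 CPM.

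At 30 h, Vwf was higher in venous barcodes, short of the limit of 0.5, and fell in capillary ones, with log2 ratios of 0.23 and −0.71 and a difference of 0.94 (0.86 to 1.02). Ptgs1 fell further in capillary than in venous barcodes, with −2.20 and −0.81 and a difference of 1.39 (1.26 to 1.51), and Serpina3g, a protease inhibitor gene, stood at 88.5, 144 and 36.1 CPM with ratios of −2.27 and −1.27. Fbln5 was at 2.83 to 3.12 CPM in capillary barcodes of the 3 libraries while it rose in venous and arterial ones. These intervals hold counting error only, and whether the difference between classes would recur in other mice was not tested.

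**Figure D5:**
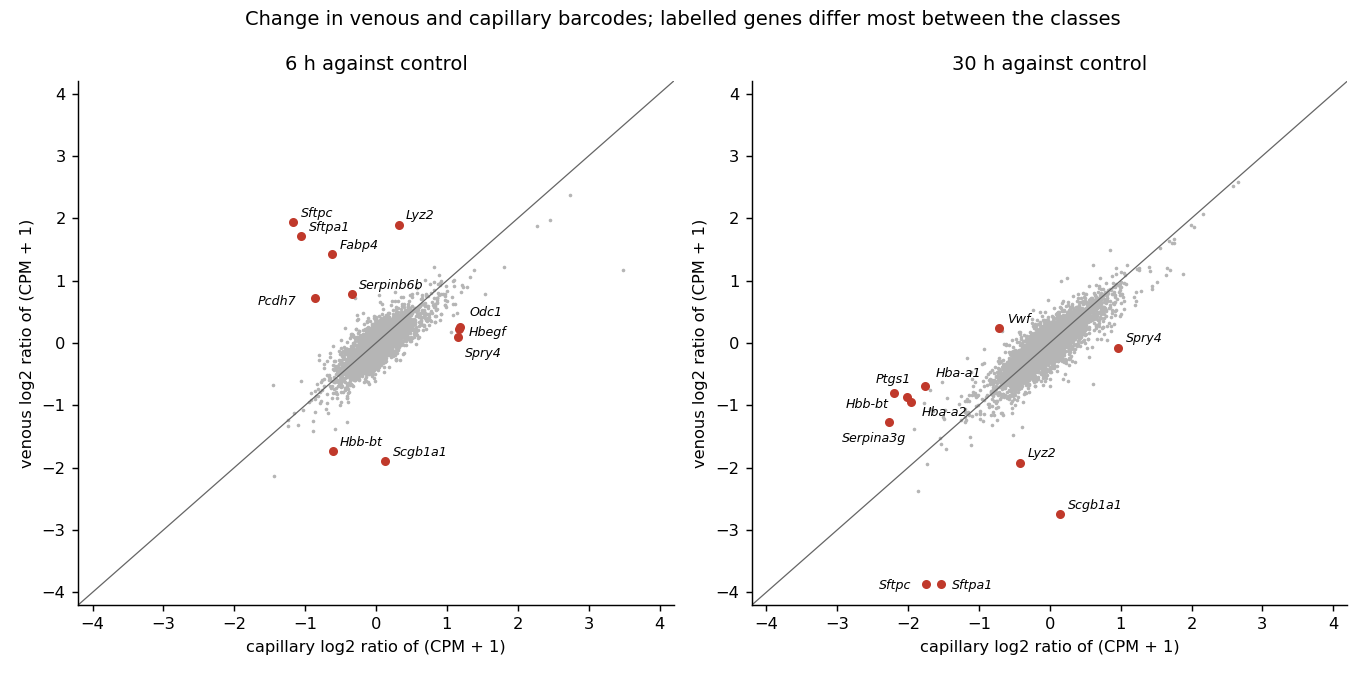
Log2 ratio of (CPM + 1) against control in capillary (x axis) and venous (y axis) barcodes for 6529 genes (grey) at 6 h and 30 h, with the line of equal change and genes that differ most in either direction, among those described, in red. Pcdh7 and Serpinb6b lie above the line at 6 h, by 1.58 and 1.13, and Spry4 below it, with a difference of −1.06.

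The genes with the largest ratios in venous barcodes were often not of endothelial origin or not limited to veins. At 6 h the 10 highest were Hspa1a, Hspa1b and Hsph1, together with Acta2, Ank3, Lyz2, Sftpa1, Sftpb, Sftpc and Slc34a2, which mark mural, epithelial or myeloid cells apart from the broadly expressed Ank3. Of the UMIs of these last 7 genes at 6 h, 85.4% to 92.5% were in 5 barcodes. Sftpa1 (86.0, 284 and 4.98 CPM), Sftpb (39.9, 151 and 2.26 CPM), Slc34a2 (29.9, 90.5 and 2.11 CPM), Lyz2 (79, 296 and 20.1 CPM) and Ank3 (22, 82.4 and 0.755 CPM) were also among the lowest genes at 30 h or against 6 h, with Sftpd (20.6, 58.4 and 2.11 CPM), Cxcl15 (20.4, 55.6 and 2.11 CPM), Cbr2 (17.4, 47.0 and 3.02 CPM) and Ager (34.8, 29.1 and 5.58 CPM). Hspa1b, Slc34a2, Ank3, Sftpd, Cxcl15 and Cbr2 passed the filter only through the 6 h library, and Ager only through the control library. Among the 10 lowest at 6 h were haemoglobin genes, the airway secretory gene Scgb1a1, Gsn, Hilpda, Zbtb16 and Tnik. Hba-a1 stood at 507, 254 and 313 CPM, Hba-a2 at 448, 172 and 232 CPM and Hbb-bt at 213, 63.2 and 116 CPM, and at 30 h 86.8% to 91.9% of the UMIs of each came from 1 barcode. Scgb1a1 stood at 259, 69.0 and 37.7 CPM in venous barcodes and at 5288, 1256 and 2098 CPM in empty droplets. The actin-severing protein gene Gsn stood at 68.8, 28.1 and 24.0 CPM and the lipid droplet gene Hilpda at 230, 95.6 and 121 CPM. Tnik, a kinase gene of the Wnt pathway, fell from 94.7 to 20.8 CPM, a ratio of −2.13 (−2.47 to −1.91), and from 89.2 to 32.3 CPM in capillary barcodes.

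At 30 h the highest ratios belonged to Cmss1 (495, 727 and 2968 CPM), Cdk8 (170, 202 and 978 CPM), Lars2 (98.1, 131 and 415 CPM), Gm42418 (4522, 5771 and 16387 CPM) and Gm15564 (13.3, 16.7 and 52.1 CPM). Each rose as much in capillary barcodes, with ratios of 2.66, 2.59, 2.16, 2.04 and 1.99, and Gm42418, which overlaps ribosomal RNA sequence, stood at 5716, 7215 and 34305 CPM in empty droplets. Also among the 10 highest were Cxcl12, Acta2, the fatty acid binding protein gene Fabp5 (39.1, 40.0 and 140 CPM) and Sncg, encoding gamma-synuclein (11.1, 18.5 and 48.3 CPM). Gm15564 and Sncg passed the filter only through the 30 h library, so that they had to differ.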

How the data were processed

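The 3 libraries (control, 6 h and 30 h) were droplet single-cell RNA libraries of sorted mouse lung endothelial cells. The authors aligned reads to mm10 with Cell Ranger 7.2.0 per the file headers, and deposited UMI counts of 32285 genes for all barcodes, empty droplets included. The methods of the paper give an earlier Cell Ranger release, and this disagreement is not settled. The submitters' processing notes also name Seurat 4.4.0. Whether intronic reads were counted, which could change each CPM, is not given in the sources used here.

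The counts were used as deposited, with no batch correction. Barcodes with 1000 to 5000 genes and under 20% mitochondrial UMIs were kept, and venous members were chosen by UMIs of 4 genes without clustering. Doublets were scored with Scrublet (scanpy 1.11.5) at 0.8% per 1000 barcodes and kept, and leaving them out was an alternative. The UMIs of each class were added up within a library and expressed as CPM. Log2 ratios used a pseudocount of 1 CPM, and a gene was compared if its levels averaged 20 CPM or more. A change was a log2 ratio of at least 0.5 or at most −0.5. Intervals at 95% (exact Poisson and binomial, Clopper-Pearson, Newcombe) used scipy 1.17.1. Those of log2 ratios are of the count ratio without the pseudocount. Those of venous minus capillary differences are a normal approximation from the counts. Shares of barcodes were compared after thinning to 2000 UMIs. With 1 library per group, p-values could not be given, and each ratio compares libraries rather than conditions. The computation was checked on simulated counts.

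Gene positions came from GENCODE M21 (GRCm38), in which 32158 of the 32285 gene identifiers (99.6%) were found, and promoters from RefSeq (GRCm38.p6). Genes were named by rank and list: the venous markers, the 10 highest and 10 lowest ratios of each comparison, genes that set venous apart from capillary barcodes, up to 5 genes of each of 40 lists, and Pim1, Pim2 and Pim3. Those described are a part of the 230 genes this gave, and some of the others are not reported here. The members, the lists and the rules were chosen with earlier results of these data known. In all, 20 alternative settings were computed, of which 2 were added after the data were seen.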

Additional observations from a re-analysis of the deposited data

Results flagged for a closer look

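Several genes moved past the limit of 0.5 in opposite directions at 6 h and at 30 h in venous barcodes. With 1 library per group these differences between the times were not tested. The log2 ratios against control at 6 h and 30 h were 1.43 and −1.48 for Selp, 2.37 and −0.84 for Hspa1b, 1.96 and −0.60 for Hspa1a, 0.53 and −1.0 for Osmr, and 0.70 and −1.27 for Serpina3g. Per1 and Rarb moved the other way, with −0.90 and 0.85 for Per1 and −0.84 and 1.00 for Rarb. Hspa1b passed the filter only through the 6 h library and Per1 only through the 30 h library. Osmr had 0.48 at 6 h among members with at least 10 rule UMIs, short of the limit. Opposite directions were also seen for genes whose RNA lay mostly in a few barcodes, some let in by the 6 h library alone. These had 1.11 and −1.09 (Alcam), 1.86 and −3.72 (Ank3), 1.89 and −1.92 (Lyz2), 1.71 and −3.86 (Sftpa1), 1.90 and −3.65 (Sftpb), 1.94 and −3.86 (Sftpc), 1.46 and −2.79 (Sftpd), 1.57 and −3.31 (Slc34a2), 1.41 and −2.78 (Cxcl15) and 1.38 and −2.20 (Cbr2).

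Opposite directions in venous and capillary barcodes of the same libraries were found at 6 h for Fabp4 (1.42 in venous and −0.62 in capillary barcodes), Pcdh7 (0.72 and −0.86), Sftpa1 (1.71 and −1.05), Sftpb (1.90 and −0.72), Sftpc (1.94 and −1.17) and Sftpd (1.46 and −0.82). These differences were not tested either.

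The 8 melanoma markers, which enter no comparison of venous genes, summed to 17.2 CPM (104 UMIs) in venous barcodes at 6 h, above the 1.57 CPM (14 UMIs) of the control library, and to 1.66 CPM (11 UMIs) at 30 h. Capillary barcodes held 1.65, 16.6 and 1.26 CPM.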

How the results depend on the processing

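With 1 library per group no replicate could be left out, and what depends on the mice cannot be told apart from what depends on the treatment. No paired analysis was possible because each group holds 1 library and the shared number 1 pairs nothing. Of the log2 ratios of the genes described, 4585 of 5616 values under an alternative moved by less than the counting error, 962 moved by more and 69 turned direction, and of the medians of gene lists 1508 of 1557 kept theirs within that error. The ratios of Selp ran from 0.96 to 1.53 for 6 h and from −1.62 to −1.3 for 30 h. Those of Vcam1 ran from 0.57 to 1.1 for 6 h, but from −0.54 to 0.0059 for 30 h, the last under the limits on RNA of other cell types. Where no construction is named, the cause was not tested. Limits on RNA of other cell types, which left out barcodes with at least 3 UMIs of a marker list, or 5 of the epithelial or red-cell list, kept 111, 218 and 517 members, and leaving out only barcodes heavy in it (added after seeing the data, like the limit of 10 rule UMIs) removed 44, 23 and 14.

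The share difference at 6 h was −3.08 points with at least 3 rule UMIs, −1.47 with 6 and −1.3 with 10, −3.08 without Slc6a2 in the rule, −3.19 without Car8, −1.34 without Prss23 and 1.07 under the limits on RNA of other cell types, which gave 4.58 at 30 h. Under these limits 424 genes were higher and 497 lower at 6 h, and 543 and 889 at 30 h. A filter at 5 CPM tests more genes and gave 454 and 386 at 6 h, 685 and 907 at 30 h, and 672 and 792 for 30 h against 6 h. No filter gave 1309 and 1113, 1516 and 1790, and 1602 and 1910. For the venous minus capillary difference at 6 h, higher and lower counts were 36 and 54 with 10 rule UMIs, 36 and 57 without doublets, 239 and 251 under the limits on other RNA, 153 and 174 at 5 CPM, 1119 and 1016 with no filter, 40 higher when 300 genes sufficed with no upper limit, and 19 lower with a pseudocount of 5 CPM. At 30 h the counts were 261 and 204 under the limits on other RNA, 175 and 205 at 5 CPM, and 869 and 1283 with no filter. The lower count alone moved to 31 with 3 rule UMIs, 106 with 10, 37 without Slc6a2, 31 without Car8, 102 without Prss23, 37 without Amigo2 and 39 when 300 genes sufficed.

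Log2 ratios that turned were mostly of genes of other cell types. With at least 10 rule UMIs, the red-cell list had 0.74 and 1.17 at 6 h and 30 h against control, Hba-a1 0.98 and 1.45, Hba-a2 0.68 and 1.31, and Hbb-bt 1.04 at 30 h, and 30 h against 6 h gave 0.29 for Acta2 and 0.50 for Fabp4. With 6 rule UMIs Fabp4 had 0.37 there. When 300 genes sufficed, ratios at 30 h were 0.41 for the epithelial list, 0.14 for Alcam, 0.79 for Lyz2, 0.40 for Scgb1a1, 0.30 for Sftpa1, 0.34 for Sftpb, 0.58 for Sftpc, 0.19 for Sftpd, 0.93 for Cxcl15, 0.94 for Cbr2 and 0.30 for Gsn, and against 6 h −0.11 for Idi1, 6.54 for Scgb1a1 and 0.43 for Cbr2. Without heavy barcodes, ratios at 6 h were −0.10 for Alcam, −0.11 for Ank3, −0.076 for Sftpa1, −0.10 for Sftpc, −1.22 for Slc34a2 and −0.29 for Sftpd, at 30 h 0.011 for Slc34a2, 0.011 for Sftpd and 0.052 for Cxcl15, and against 6 h 0.55 for Acta2, 0.065 for Ank3, 1.23 for Slc34a2, 0.30 for Sftpd and −2.13 for Hbb-bt. Under the limits on other RNA, ratios at 6 h were −0.64 for Alcam, −0.34 for Ank3, 0.26 for Hba-a1, −0.58 for Sftpa1, −0.46 for Sftpb and −1.46 for Slc34a2, at 30 h 0.012 for Sftpc, 0.96 for Sftpd, 0.43 for Cxcl15 and 0.20 for Cbr2, and against 6 h 0.0057 for Alcam, 0.068 for Scgb1a1, 0.89 for Slc34a2, 0.19 for Cxcl15, 0.30 for Ager and −1.73 for Hbb-bt. With free RNA subtracted, the red-cell list had 1.1 at 30 h, Hba-a1 0.92, Hba-a2 0.23 and Hbb-bt 1.28. Without Car8 in the rule, ratios at 6 h were −0.23 for Alcam, −1.87 for Ank3, −0.32 for Lyz2, −0.41 for Sftpa1, −0.48 for Sftpb, −0.49 for Sftpc, −1.62 for Slc34a2 and −0.64 for Sftpd, and 30 h against 6 h gave 0.15 for Fabp4, 0.021 for Lyz2, 1.46 for Slc34a2 and 0.071 for Sftpd. Without Prss23, 30 h against 6 h gave 0.40 for Acta2 and 0.46 for Fabp4, and without Slc6a2, Hba-a1 had 0.0094 at 30 h.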

Other observations

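Selp RNA was concentrated in a minority of venous barcodes. The split by Selp was chosen after its values were seen, so what follows is a description. Among members with at least 10 rule UMIs, 65 of 586 in control (11.1%, exact interval 8.67 to 13.9), 87 of 415 at 6 h (21%, 17.1 to 25.2) and 32 of 434 at 30 h (7.37%, 5.10 to 10.2) had at least 3 Selp UMIs. They held 92.3%, 96.9% and 74.5% of all Selp UMIs of those members, and the highest barcodes held 95, 131 and 26. Their median depths were 12423, 12121 and 11874 UMIs, against 9973.5, 9849.5 and 10481 in members with 0 Selp UMIs.

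The genes given next were among those with the largest ratios in each of the 3 libraries, with a mean of at least 50 CPM in the set where they were higher, and since that filter lets genes in through the higher set, no count of them is given. Sele stood at 23.0, 91.4 and 41.7 CPM in them against 1.51, 6.37 and 0.269 CPM in the others, but these levels rested on 2, 8 and 2 barcodes with a Sele UMI among the former and on 1, 4 and 1 among the latter, too few to compare the sets within a library. Mgp, which restrains calcification of the vessel wall, stood at 1000, 1187 and 810 CPM against 298, 256 and 198 CPM. Fabp4 stood at 512, 350 and 599 CPM against 93, 85.3 and 158 CPM, and Thsd7a at 151, 141 and 88.6 CPM against 21.8, 24.1 and 21.8 CPM. Ch25h, the cholesterol 25-hydroxylase gene, stood at 254, 290 and 214 CPM against 81.4, 83.1 and 80 CPM. Lower in them were Sox11 (33.2, 47.6 and 18.2 CPM against 134, 129 and 87.2 CPM), the natriuretic peptide clearance receptor gene Npr3 (37.1, 50.4 and 83.4 CPM against 139, 179 and 185 CPM), Lpl (71.5, 75.5 and 15.6 CPM against 224, 182 and 35.0 CPM, the value at 30 h from 6 UMIs in 3 barcodes) and the guidance factor gene Sema3c (437, 395 and 440 CPM against 930, 1028 and 933 CPM).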
